A study of Mus musculus with 13 samples.

Results

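The genes described are 10 ribosomal protein genes of the mouse that form 5 pairs of a common gene and a paralog named after it: Rpl3 with Rpl3l, Rpl22 with Rpl22l1, Rpl39 with Rpl39l, Rps27 with Rps27l, and Rpl7 with Rpl7l1. They were listed by symbol, with earlier results of these data known, and are 10 of 33821 genes in the deposited tables. For each, FPKM (fragments scaled to transcript length and to the mapped total of a library) was summed over transcripts of at least 200 nucleotides, and the share of the -like paralog in the summed FPKM of its pair was computed in every library. Because levels and shares chose the genes, they are given as a description, with standard errors (SE) or standard deviations (SD) and without p-values.

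RNA was sequenced from 13 libraries of wild type FvB mice, with the atria removed. Whole ventricles were taken at embryonic day 17 (E17) and at postnatal days 1, 10, 28 and 90 (PN1 to PN90), with 1 library each. Cardiomyocytes, the contracting muscle cells, gave 2 neonatal libraries, titled PN1-2 and PN1, and 1 library each at PN30 and PN67. Cardiac fibroblasts, the matrix-making cells, gave 2 neonatal libraries, titled PN1-3 and PN1-2, and 1 library each at PN28 and PN60. Preplating was used to separate neonatal cardiomyocytes, whereas hearts of PN30 and PN67 were perfused on a Langendorff apparatus, so stage and isolation method cannot be told apart in these cells. Fibroblasts of all stages were preplated after enzymatic digestion. Ventricle RNA was depleted of ribosomal RNA and sequenced with another library kit than the cells, so levels are compared within ventricles and within cells. Levels and their ratios are in FPKM as deposited unless scaling is named. Scaling divides by the median ratio over genes, which was 1.16 and 1.14 in neonatal cardiomyocytes, 0.902 at PN30 and 0.892 at PN67. It was also higher in neonatal than in later fibroblasts, and at E17 than at PN90, so falls with stage are larger as deposited than scaled. Whether the neonatal libraries of a cell type stem from separate animals or cultures is not stated, so SDs and p-values cover the spread among these samples alone, and that spread may be technical.

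A ribosome holds about one copy of each ribosomal protein beside its RNA, and most mammalian ribosomal proteins come from a single active gene. A few have a second gene whose product can take the same place, and such pairs are a source of ribosomes of different make-up. Rpl3 is a core protein of the large subunit that reaches toward the site of peptide bond formation, and Rpl3l is its paralog known from heart and skeletal muscle. Ribosomal protein genes as a class share promoters with pyrimidines at the start site and are known to be expressed in step with growth.

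Rpl3 lies on chromosome 15 (79908211 to 79913836 in mm9, counted from 1) and Rpl3l on chromosome 17 (24864774 to 24873094). Over their coding sequences the genes were 74.8% identical, and the longest identical run was 22 nucleotides, so most reads of one could be told from the other. The first 120 coding nucleotides (GENCODE M21 annotation) are shown because the split of reads between both genes rests on such differences, and the 31 positions that differ are in capitals.
Rpl3: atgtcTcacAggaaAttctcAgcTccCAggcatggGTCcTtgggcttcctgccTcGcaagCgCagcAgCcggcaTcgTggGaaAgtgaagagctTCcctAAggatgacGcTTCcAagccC
Rpl3l: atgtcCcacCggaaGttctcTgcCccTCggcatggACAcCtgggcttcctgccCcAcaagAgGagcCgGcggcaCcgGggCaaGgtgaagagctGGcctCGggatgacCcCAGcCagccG

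The most similar pair was Rpl39 (chromosome X, 34622515 to 34625397) and Rpl39l (chromosome 16, 10170319 to 10175004). Their whole coding sequences of 156 nucleotides are shown because the very low values of Rpl39l depend on telling them apart. They were 85.3% identical, with 23 differences, in capitals, and a longest identical run of 38 nucleotides.
Rpl39: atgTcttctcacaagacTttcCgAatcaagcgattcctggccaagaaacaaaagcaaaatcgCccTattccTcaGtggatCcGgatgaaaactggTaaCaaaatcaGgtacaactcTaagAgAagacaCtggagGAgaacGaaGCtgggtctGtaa
Rpl39l: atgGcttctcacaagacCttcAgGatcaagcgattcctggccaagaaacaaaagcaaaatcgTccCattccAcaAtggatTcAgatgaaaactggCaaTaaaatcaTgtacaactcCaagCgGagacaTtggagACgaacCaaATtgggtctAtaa

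Identity within the other pairs was 72.7% for Rpl22 (chromosome 4, 151699851 to 151708180) and Rpl22l1 (chromosome 3, 28704358 to 28706274). It was 76.1% for Rps27 (chromosome 3, 90016593 to 90017573) and Rps27l (chromosome 9, 66793893 to 66797323). It was 64.8% for Rpl7 (chromosome 1, 16091376 to 16094743) and Rpl7l1 (chromosome 17, 46910856 to 46919605). Copies outside the pairs were closer: the coding sequence of Rpl3 was 99.8% identical to the pseudogene Rpl3-ps1 and 99.2% to Rpl3-ps2, and that of Rps27 did not differ from Rps27rt. Rpl3 and Rpl3-ps1 shared an identical run of 728 nucleotides and Rpl3 and Rpl3-ps2 one of 187, and reads within such runs, or anywhere in the coding sequence of Rps27, cannot be assigned to one copy. The values of Rpl3 and Rps27 are uncertain to that extent.

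Rpl3l had 2 promoter windows among the RefSeq entries (GRCm38.p6, plus strand, 250 bases before to 50 after a start), and 8 of the 10 genes had at least 1. Both windows are shown because Rpl3l differed most between stages. In the upstream window the match to the GATA motif AGATAA is in capitals, and in the downstream window the match to the MEF2 motif. Motifs were searched on both strands.
Rpl3l, chr17:24727576-24727875: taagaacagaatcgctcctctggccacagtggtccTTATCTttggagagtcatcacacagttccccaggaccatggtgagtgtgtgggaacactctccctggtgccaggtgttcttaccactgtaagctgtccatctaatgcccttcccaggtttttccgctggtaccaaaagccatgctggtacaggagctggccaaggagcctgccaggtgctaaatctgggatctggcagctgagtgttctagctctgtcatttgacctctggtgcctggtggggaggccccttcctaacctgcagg
Rpl3l, chr17:24732435-24732734: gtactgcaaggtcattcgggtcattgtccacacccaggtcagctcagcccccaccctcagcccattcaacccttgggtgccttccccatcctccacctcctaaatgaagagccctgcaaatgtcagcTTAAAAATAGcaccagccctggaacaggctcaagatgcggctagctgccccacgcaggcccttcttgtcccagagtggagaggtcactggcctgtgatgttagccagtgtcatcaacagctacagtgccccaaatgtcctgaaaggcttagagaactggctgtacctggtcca
The MEF2 motif was found in 3.19% of all 32851 windows and AGATAA in 11.2%, so these matches describe the sequence and are no sign of binding. Of the 2 Rpl3l isoforms, Rpl3l-201 starts further downstream (24869630 in mm9, against 24864774 for Rpl3l-202). Windows and isoforms are placed in different builds, so they can be matched by order and spacing alone. By these, the downstream window, with the MEF2 match, goes with Rpl3l-201. The upstream window, which held no MEF2 match, goes with Rpl3l-202. Rpl3l-201 gave 1.64% and 1.06% of Rpl3l in PN30 and PN67 cardiomyocytes, and Rpl3l-202 98.4% and 98.9%. Neither Rpl3l window held a run of at least 8 pyrimidines from 10 bases before to 20 after the start, which 11.2% of all windows held. Such a run was found for Rpl22l1, Rpl39 and Rps27. It was absent from the windows of Rpl22, Rpl39l, Rps27l and Rpl7l1 as well, so its absence is not particular to Rpl3l. None of the other members' windows held the MEF2 motif.

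In cardiomyocytes, Rpl3 was the larger of the pair in RNA at birth and Rpl3l at PN30 and PN67. Rpl3l stood at 2.20 and 2.93 FPKM in the neonatal cardiomyocyte libraries, 186 at PN30 and 173 at PN67. Both later libraries lay far above the neonatal pair, and the mean ratio of later to neonatal was 69.9. Rpl3 stood at 359.6 and 347 FPKM in neonatal cardiomyocytes, 71.9 at PN30 and 78.0 at PN67, with the later libraries below the neonatal ones and a neonatal to later ratio of 4.72. The share of Rpl3l in the pair was 0.609% and 0.836% in the neonatal libraries, 72.1% at PN30 and 69.0% at PN67. This was a difference of 69.8 percentage points from a neonatal mean of 0.723% ± 0.161 (SD, n = 2). With the pseudogenes of Rpl3 added to Rpl3 it was 62.1 points.

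In FPKM as deposited, the sum of both genes differed less between stages than either alone. Rpl3 and Rpl3l together had 362 and 350.3 FPKM in neonatal cardiomyocytes, 258 at PN30 and 251 at PN67. The later mean was 0.714 of the neonatal mean, against 0.212 for Rpl3. The sum leaves out the pseudogenes of Rpl3. Rpl3-ps1 stood at 118 and 113 FPKM in neonatal libraries, 24.4 at PN30 and 25.9 at PN67, and Rpl3-ps2 at 32.7, 31.5, 6.48 and 7.16. Ribosomal protein genes outside the pairs had a median of 573 and 587 FPKM in neonatal cardiomyocytes, 211 at PN30 and 232 at PN67. The sum was below that median in both neonatal libraries and above it in both later ones. Against the median of 72 ribosomal protein genes outside the pairs, Rpl3 stood at 62.8% and 59.1% in neonatal cardiomyocytes and at 34.1% and 33.6% at PN30 and PN67. Rpl3l reached 87.9% and 74.6% of that median at PN30 and PN67, above 31 and 28 of the 72 genes, from below 0.5% in both neonatal libraries.

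**Figure D1:**
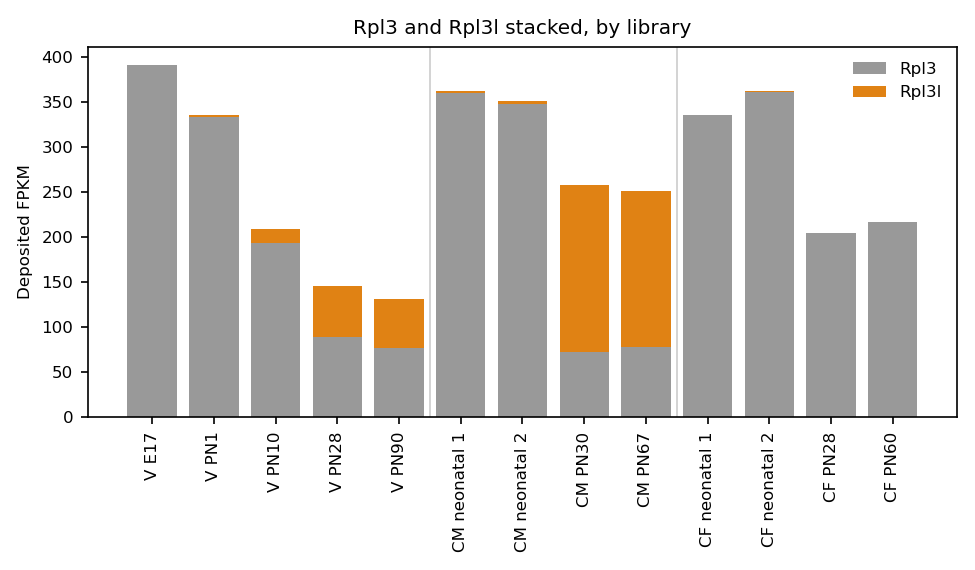
Deposited FPKM of Rpl3 (grey) and Rpl3l (orange), stacked, with 1 bar per library (V ventricle, CM cardiomyocytes, CF fibroblasts). Rpl3l made up 72.1% and 69.0% of the bar in PN30 and PN67 cardiomyocytes, 39.1% and 41.8% in PN28 and PN90 ventricles, and is too small to see in fibroblasts.

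In fibroblasts Rpl3l was near 0 at every stage. It stood at 0.340 and 0.296 FPKM in the neonatal libraries and at 0.163 in each of the PN28 and PN60 libraries, and its share of the pair was at most 0.102%. Cardiomyocyte markers were also measured in these libraries. The 12 measured cardiomyocyte markers had median values in the neonatal fibroblast libraries of 9.35% and 8.18% relative to neonatal cardiomyocytes, and Rpl3l at 13.3% and 11.5%. At PN28 and PN60 the markers stood at 0.0629% and 0.0642% of the later cardiomyocyte level and Rpl3l at 0.0910% and 0.0908%. The part of cardiomyocyte RNA in the fibroblast values of Rpl3l was not tested. Rpl3 stood at 335 and 361 FPKM in neonatal fibroblasts, 205 at PN28 and 217 at PN60, lower at the later ages than in both neonatal libraries.

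In whole ventricles the share of Rpl3l was higher at each stage than at the one before. Rpl3l stood at 0.207 FPKM at E17, 1.87 at PN1, 15.3 at PN10, 56.9 at PN28 and 55.0 at PN90. Rpl3 stood at 391, 333, 193, 88.6 and 76.4 FPKM at the same stages. The share of Rpl3l was 0.0529% at E17, 0.558% at PN1, 7.34% at PN10, 39.1% at PN28 and 41.8% at PN90, so most of the difference lay between PN10 and PN28. Their sum was 391, 335, 209, 145 and 131 FPKM. Up to PN10, Rpl3 kept pace with the other ribosomal protein genes, at 104%, 103% and 103% of their median, and it stood at 48.3% and 36.5% at PN28 and PN90. In whole tissue, fewer cells of a type and less RNA per cell cannot be told apart, and each stage had a single library.

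**Figure D2:**
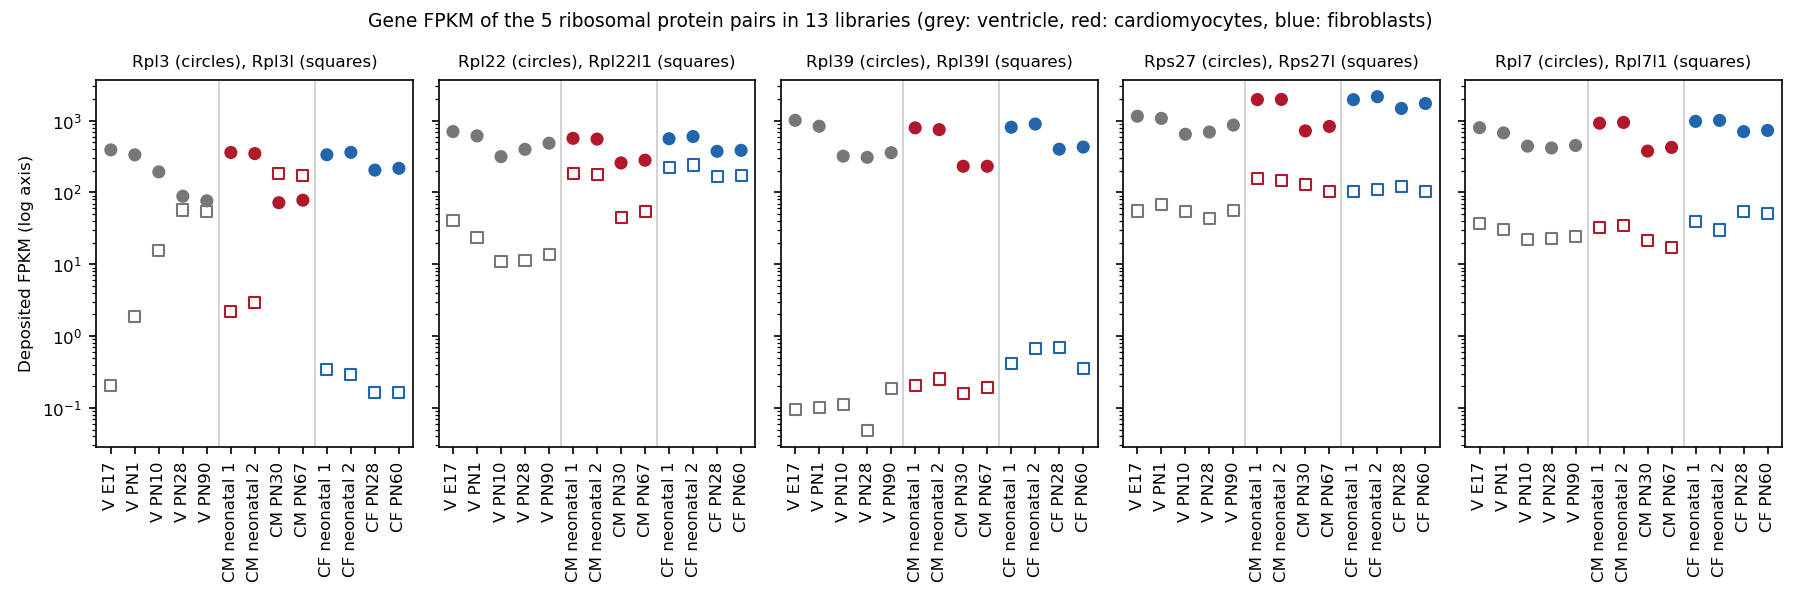
Deposited FPKM on a log axis of the common gene (circles) and the -like gene (squares) of each pair in the 13 libraries, coloured by ventricle, cardiomyocytes (CM) and fibroblasts (CF). The squares of Rpl3l cross the circles of Rpl3 in PN30 and PN67 cardiomyocytes, and no other pair crosses.

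Rpl22 is a large-subunit protein that also binds other RNAs, and its protein is known to lower expression of Rpl22l1. Rpl22l1 stood at 185 and 177 FPKM in neonatal cardiomyocytes, 45.4 at PN30 and 54.6 at PN67, and the later libraries lay below the neonatal ones with a neonatal to later ratio of 3.62. Rpl22 stood at 566 and 553 FPKM in the same neonatal libraries, 258 at PN30 and 281 at PN67, a ratio of 2.08. The share of Rpl22l1 was 24.6% and 24.3% in neonatal cardiomyocytes, 15.0% at PN30 and 16.3% at PN67, a mean difference of -8.82 points against a neonatal SD of 0.260 points (n = 2). Rpl22l1 was the member whose share was lower in later cardiomyocytes, while Rpl3l, Rps27l and Rpl7l1 had higher shares at both later ages than in both neonatal libraries. So did Rpl39l, but with shares near 0 (0.0260% and 0.0337% neonatal, 0.0676% at PN30 and 0.0839% at PN67).

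In fibroblasts the share of Rpl22l1 moved the other way. Rpl22l1 stood at 221 and 241 FPKM in neonatal fibroblasts, 168 at PN28 and 173 at PN60. Rpl22 stood at 559 and 600.0 FPKM in neonatal fibroblasts, 374 at PN28 and 385 at PN60. The share was 28.3% and 28.7% in the neonatal libraries and 31.0% in both later ones, higher by 2.50 points. All 4 fibroblast libraries had a higher share than all 4 cardiomyocyte libraries. In ventricles the share was 5.40% at E17, 3.66% at PN1, 3.31% at PN10, 2.77% at PN28 and 2.71% at PN90, with Rpl22l1 at 40.2, 23.3, 10.8, 11.4 and 13.5 FPKM and Rpl22 at 704, 613, 315, 398 and 484 FPKM. The share was lower at each stage than at the one before, and every ventricle value was below every cell value, between libraries made with different kits.

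Isoform use of Rpl22 was not part of how the genes were chosen and could be tested. The main isoform Rpl22-201 gave 92.7% and 93.3% of the gene in neonatal cardiomyocytes, 87.8% at PN30 and 86.5% at PN67. A second isoform, Rpl22-204, gave 5.07% and 4.71% in the neonatal libraries, 10.5% at PN30 and 11.4% at PN67. The log2 ratio of each isoform to the rest of the gene changed by -0.97 ± 0.19 (SE) for Rpl22-201 (limma adjusted p = 0.00554) and by 1.25 ± 0.20 for Rpl22-204. No p-value is given for Rpl22-204 in cardiomyocytes, since it reached the minimum mean share of 5% only through the later cardiomyocyte libraries. Without the PN30 or the PN67 library it was not tested. Both isoforms together gave nearly all of Rpl22, so the p-value of Rpl22-201 is not evidence separate from the change of Rpl22-204. The shares of Rpl22-201 and Rpl22-204 changed by -5.83 and 6.02 points, under the 10 points set for a call. Of 11170 tested isoforms, 17.6% were called in cardiomyocytes and 3.91% in fibroblasts, and 1.07% of 9910 were called in ventricles. In fibroblasts the limma adjusted p was 0.827 and 0.334, and over the ventricle stages it was 0.721 and 0.712. Rpl7-201 and Rpl7-205, which gave 50.5% and 49.1% of Rpl7 in the first neonatal cardiomyocyte library, had limma adjusted p of at least 0.688 in each of the comparisons in cells and 0.929 or more in ventricles. Rps27l-201 and Rps27l-204, tested in ventricles, had limma adjusted p of 0.736 and 0.771.

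Rpl39 is a small protein that lines the exit tunnel of the large subunit, and Rpl39l is a paralog known from testis. Rpl39 stood at 792 and 749 FPKM in neonatal cardiomyocytes and at 231.2 and 231.3 at PN30 and PN67. It stood at 809 and 896 FPKM in neonatal fibroblasts, 399.8 at PN28 and 428 at PN60, so the later libraries lay below the neonatal ones in both cell types. In ventricles it stood at 1009 FPKM at E17, 834 at PN1, 319.9 at PN10, 308 at PN28 and 357 at PN90. Rpl39l stood between 0.156 and 0.252 FPKM in cardiomyocytes, between 0.358 and 0.692 in fibroblasts and between 0.0489 and 0.185 in ventricles. Its share of the pair was at most 0.173% in any library, and it was the 1 member below the filter of a mean FPKM of 1, so 9 of the 10 genes entered the fits. At this level no difference between stages could be read from it: the fibroblast share was higher by 0.0649 points later, by 0.0202 without the PN28 library and by 0.109 without the PN60 library.

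Rps27 is a zinc finger protein of the small subunit, and Rps27l is known as a target of the tumour suppressor p53. Rps27 stood at 1963 and 1973 FPKM in neonatal cardiomyocytes, 719 at PN30 and 829 at PN67, and Rps27l at 158, 148, 128 and 104 FPKM in the same libraries. In FPKM as deposited the neonatal to later ratio was 2.54 for Rps27 and 1.32 for Rps27l. Scaled to the median ratio over all genes, Rps27l had a log2 difference, later minus neonatal, of -0.04 ± 0.14 (SE). The share of Rps27l was 7.44% and 6.97% in neonatal cardiomyocytes, 15.1% at PN30 and 11.1% at PN67, higher by 5.93 points later, or by 3.93 without the PN30 library. In fibroblasts Rps27 stood at 1956 and 2153 FPKM in neonatal libraries, 1476 at PN28 and 1729.9 at PN60, and Rps27l at 104, 108, 119 and 104 FPKM. The fibroblast share was 5.06%, 4.78%, 7.47% and 5.67% in this order, higher by 1.65 points later, by 0.748 without PN28 and by 2.55 without PN60. In ventricles Rps27l stood at 55.1 FPKM at E17, 68.0 at PN1, 53.8 at PN10, 43.2 at PN28 and 56.2 at PN90 with no order by stage, and its share was lowest at E17 (4.57%) and highest at PN10 (7.69%).

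The level of Rps27 itself is uncertain. The midpoint of its deposited 95% bounds was 44.0% to 52.0% of the deposited FPKM over the libraries, against 99.7% to 102.9% for Rpl3l. Other common genes were also below their FPKM, Rpl3 at 85.6% to 88.5% and Rpl39 at 69.1% to 74.8%, while Rpl22 and Rpl7 were not. With midpoints of the bounds in place of FPKM for both genes, the share of Rps27l was higher by 9.75 points in later cardiomyocytes, by 2.82 in later fibroblasts and by 3.07 at PN90 than at E17. With FPKM the difference between PN90 and E17 was 1.52 points. For Rpl22l1 the midpoints were 61.0% to 67.4% of FPKM, and the share differed by -6.55 points in cardiomyocytes, 2.16 in fibroblasts and -1.64 in ventricles, where FPKM gave -2.70.

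Rpl7 is a large-subunit protein, and Rpl7l1 is a relative thought to act in the maturation of that subunit. Rpl7 stood at 919.9 and 942 FPKM in neonatal cardiomyocytes, 376 at PN30 and 424 at PN67, and Rpl7l1 at 32.6, 35.1, 21.6 and 17.1 FPKM. In fibroblasts Rpl7 stood at 975 and 1006.5 FPKM in neonatal libraries, 702 at PN28 and 729.7 at PN60, while Rpl7l1 stood at 38.9, 29.97, 54.2 and 51.0 FPKM. Rpl7l1 was thus lower in later cardiomyocytes and higher in later fibroblasts, without overlap between the stages in either. Its share in fibroblasts was 3.84% and 2.89% in neonatal libraries, 7.17% at PN28 and 6.54% at PN60, higher by 3.49 points. In cardiomyocytes it was 3.42%, 3.59%, 5.44% and 3.89%, higher by 1.16 points, by 0.377 without PN30 and by 1.93 without PN67. In ventricles the share of Rpl7l1 lay between 4.26% and 5.24%, with Rpl7 from 416 to 797 FPKM and Rpl7l1 from 22.1 to 36.5, both highest at E17.

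**Figure D3:**
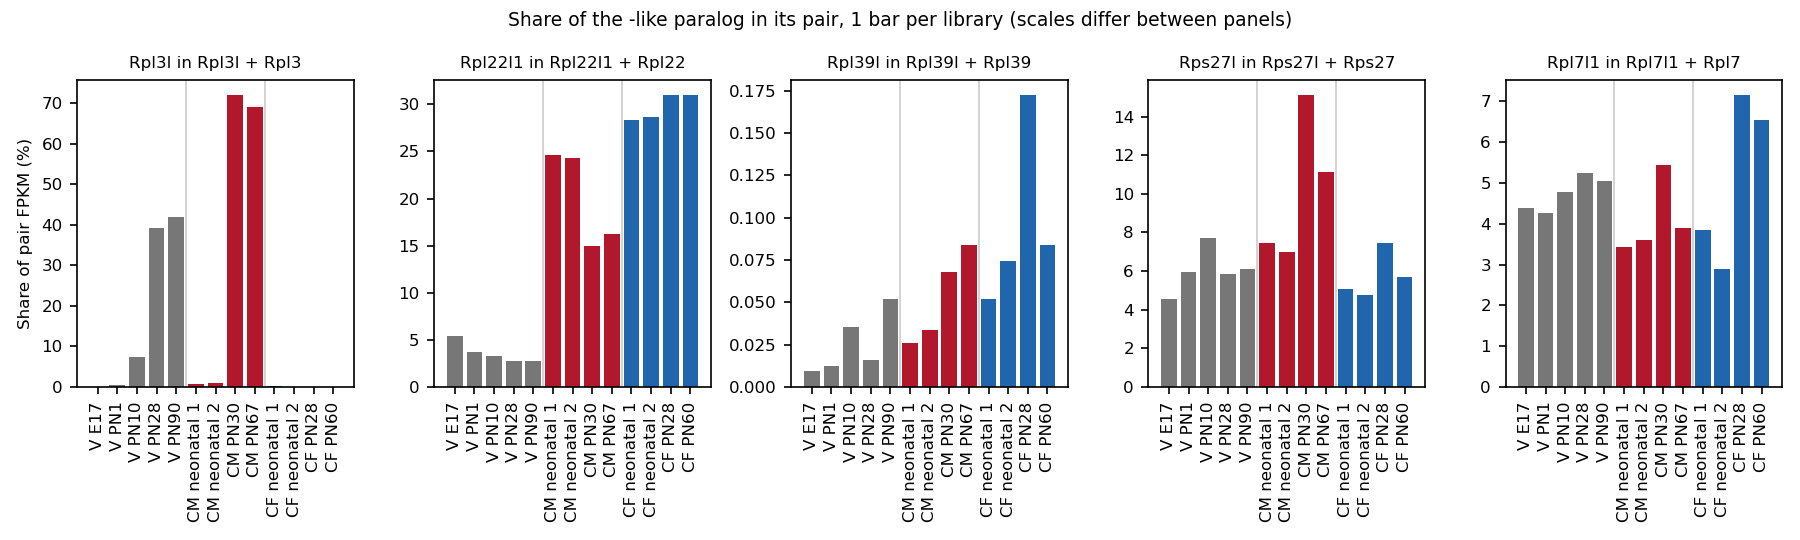
Share of the -like paralog in the summed FPKM of its pair (percent, each panel with its own axis from 0), with 1 bar per library coloured by ventricle, cardiomyocytes (CM) and fibroblasts (CF). The share of Rpl3l was 72.1% and 69.0% in later cardiomyocytes, that of Rpl22l1 was lower in later than in neonatal cardiomyocytes, and that of Rpl39l was at most 0.173%.

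Scaled to the median ratio over all genes and set on log2(FPKM + 1), which understates changes of low genes, the members were placed beside ribosomal protein genes outside the pairs. In cardiomyocytes Rpl3l had a log2 difference, later minus neonatal, of 5.97 ± 0.15 (SE). Rpl3 had -1.87 ± 0.10, and 2 of 72 ribosomal protein genes were lower. Rpl22l1 had -1.49 ± 0.12 and Rpl39 -1.37 ± 0.09, with 3 of 72 lower in each case. Rps27 (-0.99 ± 0.11), Rpl7 (-0.86 ± 0.10) and Rpl22 (-0.69 ± 0.09) lay within the range of the 72. Rpl7l1 (-0.43 ± 0.18) and Rps27l (-0.04 ± 0.14) lay above 71 and 72 of them. Without the PN67 library the value of Rps27l was 0.13, and as deposited it was -0.40. Of the 9 members tested, 1 was called higher and 6 lower by limma at an adjusted p under 0.05, where 37.2% of 12076 genes were called higher and 29.8% lower, and nothing is read from this count since the genes were chosen on these libraries.

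The ribosomal protein genes outside the pairs fell together in cardiomyocytes. Of 72 tested, 71 fell and 0 rose (median log2 change -0.92, against 0.10 over all genes). The lowest were Rpl24 (-2.48 ± 0.15), Rps24 (-2.35 ± 0.14) and Rps12 (-1.60 ± 0.11), each with a limma adjusted p of at most 1.97e-05. Among the highest were Rps4x (-0.29 ± 0.19, limma adjusted p = 0.204) and Rpl36 (-0.45 ± 0.09). Of 3 tested paralogs outside the pairs, Rps4l (-1.79 ± 0.17, limma adjusted p = 6.03e-05) and Rps27rt (-0.83 ± 0.14, limma adjusted p = 0.00148) fell, and Rpl36al had -0.25 ± 0.11 (limma adjusted p = 0.0843). Coding reads of Rps27rt cannot be told from those of Rps27, so its fall may not be separate from that of Rps27. Erythroid markers moved with this contrast. The 5 measured had a summed FPKM of 17893 to 23331 in neonatal and of 635 to 995 in later cardiomyocytes, and 13 endothelial markers 1770 to 2028 and 545 to 588. The part of other cells in the result was not tested.

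Other genes of the ribosome pathway were split. Of 65 ribosome biogenesis genes, 29 fell and 6 rose in cardiomyocytes (median -0.39), and 16 and 17 fell without the second neonatal and the PN67 library. Npm1, a nucleolar chaperone, fell (-1.65 ± 0.12) and so did the nucleolar GTPase Gnl3 (-1.53 ± 0.13, limma adjusted p at most 4.24e-05). The RNA polymerase I subunits Polr1a (0.97 ± 0.23, limma adjusted p = 0.00671) and Polr1e (1.05 ± 0.38, limma adjusted p = 0.0395) rose but Polr1e was not called as deposited (0.71), without either neonatal library or without the PN30 library. Of 42 translation factors, 16 fell and 9 rose (median -0.21), with Pabpc1, the poly(A)-binding protein (-2.43 ± 0.12), and the helicase Eif4a1 (-1.40 ± 0.11) lowest and Eif4a2 (0.95 ± 0.12) and Eif2b5 (0.94 ± 0.17) highest. As deposited, 26 translation factors fell and 3 rose, and without 1 of the cardiomyocyte libraries 10 to 13 fell and 4 to 6 rose. Of 24 p53 targets other than Rps27l, 11 fell and 7 rose (median -0.49). Eda2r (-3.29 ± 0.20) and the cell cycle inhibitor Cdkn1a (-3.24 ± 0.29) were lowest, and Ccng1 (2.96 ± 0.14) and Sesn1 (2.81 ± 0.29) highest, each with a limma adjusted p of at most 9.85e-05.

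In fibroblasts 7 of the 9 members tested had smaller log2 differences between stages than in cardiomyocytes, and Rpl7l1 and Rps27l had larger ones. Rpl39 had a log2 difference of -0.69 ± 0.09 (SE), with 1 of 72 ribosomal protein genes lower, and Rpl3 had -0.37 ± 0.10. Rpl22 had -0.26 ± 0.09, Rpl7 -0.12 ± 0.10, Rpl3l -0.11 ± 0.15, Rpl22l1 -0.09 ± 0.12 and Rps27 -0.01 ± 0.11. Rps27l (0.42 ± 0.14) and Rpl7l1 (0.95 ± 0.18) lay above 71 and all 72 of the ribosomal protein genes. With FPKM as deposited Rps27l had 0.07 and Rpl7l1 0.61. In this comparison 2 members were called higher and 2 lower of 9, where 19.7% of all genes were called higher and 20.8% lower, and nothing is read from this count either.

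Of the 72 ribosomal protein genes outside the pairs, 21 fell and 2 rose in fibroblasts (median -0.18, all genes -0.02), but 63 fell and 0 rose with the FPKM as deposited or with mitochondrial genes removed. Without the first neonatal, the second neonatal or the PN60 fibroblast library 9, 5 and 14 fell. Rpl36a (-0.75 ± 0.09), Rps26 (-0.68 ± 0.09) and Rpl13a (-0.63 ± 0.13) were lowest, with limma adjusted p of at most 0.00766, and Rps4x (0.57 ± 0.19, limma adjusted p = 0.0432), Rpl7a (0.38 ± 0.12, limma adjusted p = 0.0341) and Rpl24 (0.28 ± 0.15, limma adjusted p = 0.181) highest. As deposited, Rps4x and Rpl7a had 0.24 and 0.03 and were not called, and neither was called without either neonatal fibroblast library. Of the paralogs outside the pairs, Rps4l fell (-0.78 ± 0.17, limma adjusted p = 0.00827) and Rpl36al had 0.13 ± 0.11 (limma adjusted p = 0.392). Ribosome biogenesis genes rose for 51 of 65, with 0 down (median 0.97), and for 28 without the second neonatal fibroblast library. Nhp2 (1.61 ± 0.17, limma adjusted p = 0.000358) and Grwd1 (1.83 ± 0.73, limma adjusted p = 0.0834) were highest and Mettl18 (-0.21 ± 0.14) and Polr1c (-0.11 ± 0.19), neither called, lowest.

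Of 42 translation factors, 19 rose and 2 fell in fibroblasts, or 7 and 9 as deposited and 6 and 0 without the second neonatal library. Eif2b3 (1.22 ± 0.25), Eif4h (1.15 ± 0.18), Eif3k (-0.49 ± 0.11) and Eif3f (-0.46 ± 0.13) were at the ends, with limma adjusted p of at most 0.0264. Eif3f was not called without either neonatal fibroblast library or without the PN60 library. Of 24 p53 targets 5 rose and 4 fell, or 5 and 9 as deposited. Fas (2.24 ± 0.30) and Ephx1 (1.62 ± 0.27) were highest and Psrc1 (-1.47 ± 0.20) and Polk (-1.07 ± 0.15) lowest, with limma adjusted p of at most 0.00297. Markers of several cell types moved with this contrast, and their part was not tested. Summed FPKM of 15 macrophage and leukocyte markers was 175 to 360.2 in neonatal and 924 to 1122 in later fibroblasts. That of 13 endothelial markers was 810 to 1003 and 471 to 494, and that of 9 mesothelial markers 20.8 to 38.3 and 1.71 to 5.29. That of 12 cardiomyocyte markers was 1334 to 1493 and 26.3 to 34.7.

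**Figure D4:**
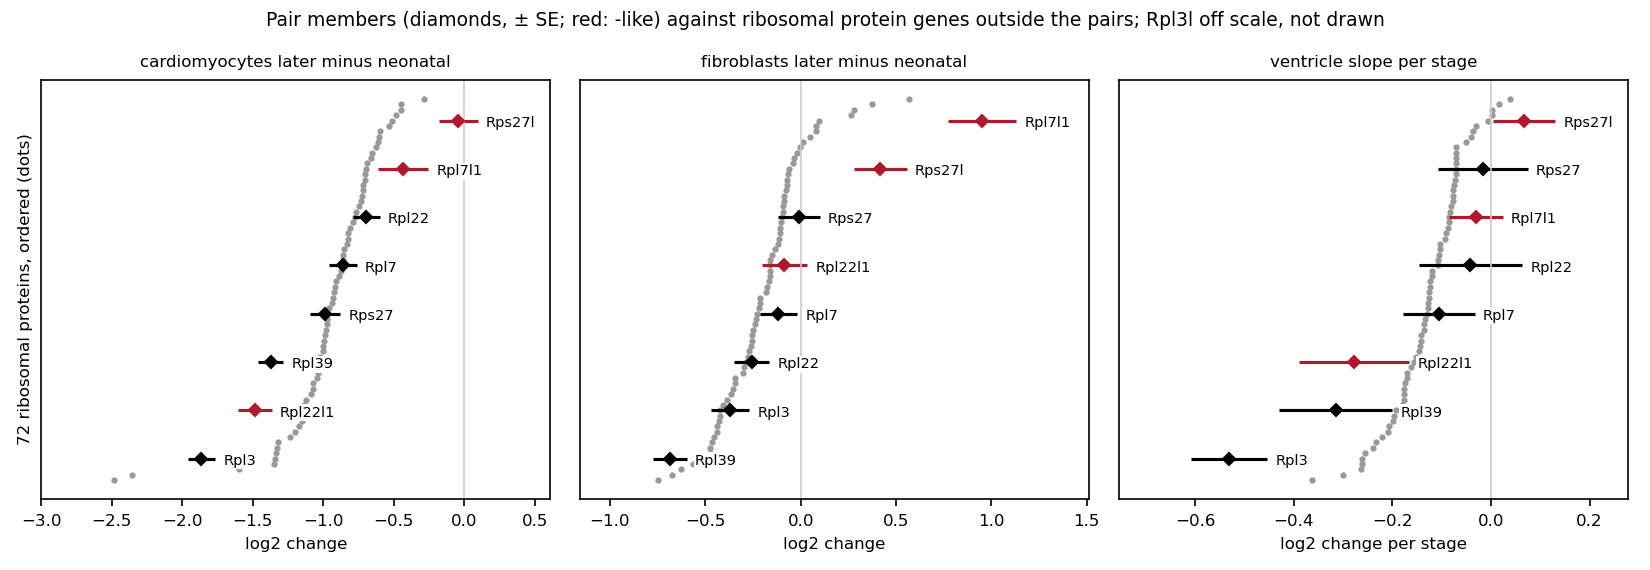
Log2 change (horizontal axis) of 72 ribosomal protein genes outside the pairs (grey dots, in rising order) and of pair members (diamonds with SE, -like genes in red, spaced vertically for legibility), in cardiomyocytes, in fibroblasts and per stage in ventricles. Rpl3l is off scale and not drawn, and Rpl39l was not fitted. Rpl3 (-1.87, -0.37 and -0.53) lies near or beyond the low end in cardiomyocytes and ventricles, and Rps27l near or beyond the high end in all 3 panels.

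Set against each other, the change in cardiomyocytes minus that in fibroblasts was 6.08 ± 0.21 (SE) for Rpl3l, -1.50 ± 0.14 for Rpl3, -1.40 ± 0.17 for Rpl22l1 and -1.39 ± 0.25 for Rpl7l1. It was -0.98 ± 0.15 for Rps27, -0.74 ± 0.14 for Rpl7, -0.69 ± 0.13 for Rpl39, -0.46 ± 0.19 for Rps27l and -0.44 ± 0.13 for Rpl22. Of 9 members 1 was called higher and 7 lower, with 32.2% of all genes called higher and 26.3% lower, a count on the libraries that chose the genes, from which nothing is read. Of the 72 other ribosomal protein genes, 64 changed lower in cardiomyocytes and 0 higher (median -0.73, all genes 0.09). Rpl24 (-2.77 ± 0.22), Rps24 (-1.99 ± 0.20) and Rpl7a (-1.40 ± 0.16) were lowest, with limma adjusted p of at most 0.000296, and Rps29 (-0.07 ± 0.12) and Rps23 (-0.16 ± 0.31) were among the highest, with limma adjusted p of at least 0.616. In the other lists, Rps4l (-1.01 ± 0.24), Nop58 (-2.79 ± 0.21), Grwd1 (-3.32 ± 1.04), Pabpc1 (-2.48 ± 0.17), Eif6 (-2.28 ± 0.24), Cdkn1a (-3.90 ± 0.41) and Sesn2 (-2.86 ± 0.26) were lowest. Nop10 (0.67 ± 0.16), Mettl18 (0.84 ± 0.20), Eif4a2 (0.59 ± 0.17), Eif2b4 (1.17 ± 0.34), Ccng1 (3.05 ± 0.20) and Sesn1 (3.20 ± 0.41) were highest, all 13 with a limma adjusted p of at most 0.0265, while Rpl36al had -0.38 ± 0.16 and was not called. Grwd1 was not called without a filter, without either neonatal or the PN67 cardiomyocyte library, or without the second neonatal or the PN28 fibroblast library. Eif4a2 was not called without the second neonatal cardiomyocyte library or either neonatal fibroblast library, and Eif2b4 not without any 1 of the neonatal libraries or the PN30 library. Of the lists as wholes, 46 of 65 ribosome biogenesis genes, 20 of 42 translation factors and 13 of 24 p53 targets changed lower in cardiomyocytes, and 3, 4 and 6 higher.

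Averaged over both stages, cardiomyocytes had more Rpl3l than fibroblasts (log2 difference 4.37 ± 0.10, SE) and less Rpl22l1 (-1.07 ± 0.08, with 2 of 72 ribosomal protein genes lower), Rpl3 (-0.75 ± 0.07) and Rpl7l1 (-0.73 ± 0.13). Rps27 had -0.58 ± 0.08, Rpl39 -0.51 ± 0.06, Rpl7 -0.49 ± 0.07, Rpl22 -0.29 ± 0.07 and Rps27l 0.27 ± 0.10, or 0.07 with mitochondrial genes removed. Of the 9, 2 were called higher and 7 lower, with 37.1% of all genes called higher and 39.5% lower, and again nothing is read from the count. Of the 72 other ribosomal protein genes, 65 were lower and 1 higher (median -0.57, all genes -0.06). Rpl24 (-1.98 ± 0.11), Rps12 (-1.23 ± 0.08) and Rpl10 (-1.04 ± 0.07) were lowest, and Rpl36 (0.07 ± 0.06) and Rps29 (0.04 ± 0.06), neither called, were among the highest. In cardiomyocytes 52 of 65 ribosome biogenesis genes, 27 of 42 translation factors and 14 of 24 p53 targets were lower, and 4, 5 and 6 higher. The ends of these lists were Nop58 (-2.46 ± 0.11), Nop56 (-2.35 ± 0.11), Pabpc1 (-1.70 ± 0.08), Eif4a1 (-1.56 ± 0.08), Sesn2 (-2.39 ± 0.13) and Cdkn1a (-2.31 ± 0.20) below, and Nop10 (0.97 ± 0.08), Polr1e (1.16 ± 0.27), Eif2b4 (1.02 ± 0.17), Eif2b5 (0.96 ± 0.12), Ccng1 (3.14 ± 0.10) and Perp (3.82 ± 0.12) above, with limma adjusted p of at most 0.00467. Of the paralogs outside the pairs, Rps27rt had -0.43 ± 0.10 (limma adjusted p = 0.0055) and Rps4l 0.09 ± 0.12 (limma adjusted p = 0.513). The value of Rps27rt may not be separate from that of Rps27, whose coding sequence is the same.

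Over the 5 ventricle stages the slope per stage was 1.62 ± 0.18 (SE) for Rpl3l and -0.53 ± 0.08 for Rpl3, with 0 of 72 ribosomal protein genes below Rpl3. Rpl39 had -0.31 ± 0.11, Rpl22l1 -0.28 ± 0.11 and Rpl7 -0.11 ± 0.07. Rpl22 had -0.04 ± 0.10, Rpl7l1 -0.03 ± 0.05, Rps27 -0.02 ± 0.09 and Rps27l 0.07 ± 0.06, or -0.06 as deposited. Of 9 members 1 was called up and 1 down, with 20.4% of 11621 genes called up and 14.6% down, and nothing is read from this, since the ventricle levels also chose the genes. Of the 72 ribosomal protein genes 4 fell and 0 rose (median -0.12, all genes 0.01). As deposited 29 fell, and with mitochondrial genes removed 36. Without the E17, PN1, PN10, PN28 and PN90 library 0, 1, 7, 1 and 7 fell. Rps16 (-0.36 ± 0.08, limma adjusted p = 0.0164), Rps26 (-0.30 ± 0.08, limma adjusted p = 0.0382) and Rpl36a (-0.26 ± 0.10, limma adjusted p = 0.0824) were lowest.

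In the other lists of the ventricle series, 3 of 64 ribosome biogenesis genes fell and 1 rose, 4 of 42 translation factors fell and 6 rose, and 3 of 21 p53 targets fell and 7 rose. As deposited, 17 biogenesis genes and 10 translation factors fell and 0 of either rose. Without the E17 library 0 of either list fell, and without the PN1 or PN28 library 0 biogenesis genes and 1 translation factor fell. Of the p53 targets, 1 fell without the E17, PN1 or PN28 library. Markers of several cell types moved with stage: summed FPKM of 5 erythroid markers was 5757 at E17 and 157 to 225 later, that of 9 mesothelial markers 78.6 at E17 and 3.01 at PN90, that of 15 macrophage and leukocyte markers 53.3 at E17 and 146 at PN90, and that of 10 cardiomyocyte markers 17214 and 33578. Their part in the ventricle results, those of the members included, was not tested. The paralog Rps4l (-0.68 ± 0.08), the translation factor Pabpc1 (-0.56 ± 0.10) and the p53 targets Psrc1 (-0.63 ± 0.06), Ephx1 (0.65 ± 0.05) and Ccng1 (0.81 ± 0.11) were at the ends of their lists, with limma adjusted p of at most 0.00883. Nop58 (-0.30 ± 0.08), Eif4a1 (-0.27 ± 0.06) and Plk2 (-0.21 ± 0.06) fell and Eif3j1 (0.24 ± 0.04) and Eif4e (0.29 ± 0.07) rose, with limma adjusted p of at most 0.0376. Npm1 (-0.28 ± 0.09), Rrp12 (0.15 ± 0.06), Rrp9 (0.20 ± 0.09) and Rpl36al (-0.06 ± 0.06) were not called.

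The 5 genes whose pattern over the 8 cell libraries was most like that of Rpl3l were Kif6, Lrtm1, Myadml2os, Pdzd9 and Mlxipl, with Pearson's r of 0.999 each on log2(scaled FPKM + 1). Over the 5 ventricle libraries r was 0.992, 0.991, 0.855 and 0.911 for Kif6, Lrtm1, Pdzd9 and Mlxipl, and Myadml2os was not among the genes fitted there. Lrtm1 stood at 1.52 and 1.46 scaled FPKM in neonatal cardiomyocytes, 72.0 at PN30 and 62.2 at PN67, and at most 0.104 in fibroblasts. At PN30 Kif6 stood at 4.03, Myadml2os at 4.91, Pdzd9 at 3.37 and Mlxipl at 11.3 scaled FPKM. All 5 genes passed the filter of a mean FPKM of 1 only through the later cardiomyocytes, so their r in cells rests on those libraries. The 5 genes most like Rpl22l1 were ribosomal protein genes: Rps3a2, Rpl4, Rps3a1, Rpl12 and Rpl30, with r from 0.996 to 0.998 in cells and from 0.944 to 0.976 in ventricles. Rps3a2 stood at 45.3 and 45.4 scaled FPKM in neonatal cardiomyocytes, 23.2 at PN30 and 26.8 at PN67, against 828, 849, 429 and 499 for Rps3a1. Whether Rps3a2 and Rps3a1 share reads was not tested. All r given here describe libraries that share class, depth and scaling, and no p is given.

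Over the whole series, libraries listed 19335 to 23323 transcripts at an FPKM of at least 1. Fragment totals are not in the tables used here, and the ratio of deposited coverage to FPKM, which follows depth, was 19.5 to 32.8. By limma, 12 of 12 measured cardiomyocyte markers were called higher in cardiomyocytes, and 9 of 9 fibroblast markers in fibroblasts. The split of called genes moved with the scaling. In cardiomyocytes 4494 rose and 3594 fell, against 3363 and 4867 as deposited. In fibroblasts it was 2381 and 2507, against 1474 and 4656, and in ventricles 2367 and 1693, against 1271 and 3445. The shares within pairs do not depend on scaling.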

How the data were processed

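Reads were aligned with TopHat2 2.0.5 and quantified with Cufflinks 2.1.1 on mm9, per the submitters' processing notes. No source used here names the annotation release. The authors deposited FPKM per transcript, with a coverage value (signal) and 95% bounds, and no fragment totals are in the tables used here. Of 94696 transcripts, 82379 matched a gene name (87.0%). FPKM of transcripts of at least 200 nucleotides was summed per gene. Libraries were scaled to the median ratio over genes, and log2(FPKM + 1) of genes with a mean of at least 1 was fitted with limma 3.58.1 in R 4.3.3: 4 cell groups of type and stage (4 residual degrees of freedom), or a slope over the ventricle stages coded in order (3 residual degrees of freedom). P-values were adjusted by Benjamini-Hochberg over all genes tested, with a threshold of 0.05. Isoforms with a mean share of 5% to 95% in genes of at least 5 FPKM were fitted as log2 ratios, with 0.5 added.

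Members and gene lists were chosen with earlier results of these data known. The text names all 10 members, the 3 highest and 3 lowest ribosomal protein genes outside the pairs, the 2 highest and 2 lowest genes of the other lists, summed levels for marker lists, and the 5 genes most like Rpl3l and Rpl22l1. A few genes that this rule names are not reported here. The fits were tested on simulated data with 100 genes changed by each size, drawn only from genes of higher FPKM. The cardiomyocyte fit (12076 genes) recovered 60% of genes changed by a log2 of 1 and 94% at 2. The ventricle fit (11621 genes) recovered 9% at a slope of 0.25 and 62% at 0.5. Far fewer genes were changed than were called in the data, and none at low FPKM, so these rates do not carry over to all genes. The alternatives were FPKM as deposited, mitochondrial genes removed, other pseudocounts and filters, the deposited bounds, pseudogenes added to Rpl3, and leaving out each library.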

Additional observations from a re-analysis of the deposited data

Results flagged for a closer look

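For 2 members, both later libraries lay on one side of both neonatal libraries in cardiomyocytes and on the other side in fibroblasts. The change in cardiomyocytes minus that in fibroblasts was 6.08 (log2) for Rpl3l, whose fibroblast change of -0.11 ± 0.15 was within its SE, and -1.39 for Rpl7l1. No p-value is given for these differences, since the genes were chosen on these libraries. The changes in share, which were not tested, differed in the same way by 69.8 percentage points for Rpl3l and by -11.3 points for Rpl22l1.

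For named genes of the other lists, the change with stage differed between the cell types by limma's test of the difference, with an adjusted p under 0.05. Among ribosomal protein genes the log2 difference was -2.77 for Rpl24, -1.99 for Rps24, -1.26 for Rps12, -0.85 for Rps4x, -0.49 for Rpl36a, -0.66 for Rps26, -0.72 for Rpl13a and -1.40 for Rpl7a, and for the paralog Rps4l it was -1.01. Among ribosome biogenesis genes it was -1.86 for Npm1, -2.42 for Gnl3, 0.84 for Mettl18, -1.09 for Polr1c, -2.41 for Nhp2 and -3.32 for Grwd1. Among translation factors it was -2.48 for Pabpc1, -2.10 for Eif4a1, 0.59 for Eif4a2, 0.47 for Eif3k and -1.08 for Eif4h. Among p53 targets it was -2.73 for Eda2r, -3.90 for Cdkn1a, 3.20 for Sesn1, 3.05 for Ccng1 and -2.52 for Fas.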

How the results depend on the processing

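No paired analysis was possible because the labels carry no replicate numbers. No named gene or isoform with a called change turned sign under the alternatives run, but several small log2 values of members did: Rps27l in cardiomyocytes without the first neonatal or the PN67 library and in ventricles as deposited or with mitochondrial genes removed, Rps27 in fibroblasts without PN28, the second neonatal or the PN67 cardiomyocyte library, and in ventricles Rpl22 and Rpl7l1 without E17 and Rps27 without E17 or PN28. The balance of called genes turned from more up to more down in cardiomyocytes and ventricles with FPKM as deposited, as did that of fibroblast translation factors; the values stand with those results. With the midpoints of the deposited 95% bounds (chosen after seeing the data), the lower or the upper bounds in place of FPKM, the difference in share in cardiomyocytes was 72.5 (midpoints) and 70.3 points (upper) for Rpl3l, -6.55, -6.78 and -6.51 for Rpl22l1, 0.0717, 0.0163 and 0.0904 for Rpl39l, and 9.75 (midpoints) for Rps27l. In fibroblasts it was 2.16, 2.05 and 2.21 for Rpl22l1, 0.0902 (midpoints) and 0.0826 (upper) for Rpl39l, and 2.82 (midpoints) for Rps27l. In ventricles it was 45.6, 40.9 and 42.9 for Rpl3l, -1.64, -1.67 and -1.67 for Rpl22l1, 0.0686, 0.0192 and 0.0760 for Rpl39l, and 3.07 (midpoints) for Rps27l. With pseudogenes added to Rpl3, Rpl3l gave 62.1 points in cardiomyocytes and 33.2 in ventricles. With a gene minimum of 20 FPKM, 864 isoforms were called in cardiomyocytes and 253 in fibroblasts, against 1969 and 437, and with 0.1 added 13 were called in ventricles, against 106. Ribosomal protein genes that fell in fibroblasts numbered 63 as deposited and with mitochondrial genes removed (0 rose) and 13 without a filter (1 rose), against 21 (2 rose), and in ventricles 29, 36 and 0, against 4.

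Leaving out 1 library, genes called ranged from 6329 to 9165 in cardiomyocytes, 2747 to 6186 in fibroblasts (lowest without the second neonatal library), 8350 to 9786 between cell types, 5311 to 8002 for the difference of changes and 1233 to 4492 in ventricles (1233 without E17, 2401 without PN1, 2348 without PN28). Isoforms called ranged from 1507 to 2079, 151 to 547 and 0 to 239 in cardiomyocytes, fibroblasts and ventricles. Ribosomal protein genes that fell ranged from 70 to 72, 5 to 23 (0 to 2 rose) and 0 to 7, from 63 to 67 between cell types and from 50 to 64 for the difference. Shares in cardiomyocytes ranged from 68.2 to 71.4 points for Rpl3l, -9.47 to -8.18 for Rpl22l1, 0.0378 to 0.0540 for Rpl39l, 3.93 to 7.94 for Rps27l and 0.377 to 1.93 for Rpl7l1. In fibroblasts they ranged from -0.0241 to -0.00440, 2.34 to 2.65, 0.0202 to 0.109, 0.748 to 2.55 and 3.01 to 3.96 in the same order.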
